A study of Homo sapiens with 6 samples.

Results

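The AP-1 and immediate-early genes described here are 10 genes chosen by symbol: FOS, FOSB, FOSL1 and FOSL2 of the FOS family, JUN, JUNB and JUND of the JUN family, and EGR1, IER2 and IER3. They are 10 of the 36601 genes in the matrices. Each symbol matched a single gene identifier, and all 10 passed the low-count filter that left 16763 genes for testing. They were followed in 6 single-cell RNA-seq libraries made on Seq-Well S3, a platform that captures each cell's RNA on a barcoded bead inside a microwell. The cells were SK-N-BE(2)-C, a neuroblastoma line of human origin. DMSO, the solvent control, TSA and E6R had 2 libraries each, and all 6 came from the same line detached with TrypLE, a cell-dissociation enzyme. TSA is the usual abbreviation of trichostatin A, which blocks the catalytic activity of histone deacetylases (HDACs), and the study's title names an inhibitor of HDAC complexes that is not enzymatic. E6R appears in the labels only as that code. The labels state neither doses nor exposure times nor the cultures behind the replicates, so the p-values measure the spread between these libraries, which may be technical.

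AP-1 is a dimer of basic leucine zipper proteins. JUN proteins pair with each other or with FOS proteins, FOS proteins need a JUN partner, and the dimers bind a short palindrome in promoters and enhancers. FOS, FOSB, JUN, JUNB, EGR1, IER2 and IER3 are classed as immediate-early genes: their transcription starts within minutes of a growth factor, calcium or stress signal without new protein synthesis, through SRF with ternary complex factors and through CREB, and their short-lived mRNAs soon disappear again. FOSL1 and FOSL2 usually follow later and last longer, JUND is present in most resting cells, and in neural cells FOS, EGR1 and ARC are the usual readouts of recent activity.

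The promoters of FOS, FOSB and EGR1, which rose under TSA, and of JUN and JUND, which did not pass the test, are printed to show which short motifs each holds. The sequences are from RefSeq on GRCh38.p14, 250 bases before to 50 bases after the annotated start, 5′ to 3′ on the gene's strand. The regions are chr14:75278578-75278877 on the plus strand for FOS, chr19:45467746-45468045 on the plus strand for FOSB, chr5:138465229-138465528 on the plus strand for EGR1, chr1:58783998-58784297 on the minus strand for JUN and chr19:18281573-18281872 on the minus strand for JUND. Capitals mark every match, on either strand, to TGANTCA (an AP-1 site), TGANNTCA (the longer AP-1 or CRE palindrome), TGACG (the core of a CRE, which can lie inside TGANNTCA), TATAAA, GCGTGGGCG (an EGR site) or the CArG box bound by SRF.
FOS: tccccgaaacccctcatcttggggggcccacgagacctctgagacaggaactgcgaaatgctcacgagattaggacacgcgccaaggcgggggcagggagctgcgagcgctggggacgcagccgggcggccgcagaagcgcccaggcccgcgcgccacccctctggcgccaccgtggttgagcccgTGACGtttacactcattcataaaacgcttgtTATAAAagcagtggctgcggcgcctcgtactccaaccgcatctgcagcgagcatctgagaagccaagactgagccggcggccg
FOSB: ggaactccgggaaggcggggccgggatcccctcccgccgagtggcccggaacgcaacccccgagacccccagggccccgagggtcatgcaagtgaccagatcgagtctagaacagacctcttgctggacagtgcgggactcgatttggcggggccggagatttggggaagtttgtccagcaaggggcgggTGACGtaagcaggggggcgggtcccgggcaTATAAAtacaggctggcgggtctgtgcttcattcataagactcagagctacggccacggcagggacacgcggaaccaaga
EGR1: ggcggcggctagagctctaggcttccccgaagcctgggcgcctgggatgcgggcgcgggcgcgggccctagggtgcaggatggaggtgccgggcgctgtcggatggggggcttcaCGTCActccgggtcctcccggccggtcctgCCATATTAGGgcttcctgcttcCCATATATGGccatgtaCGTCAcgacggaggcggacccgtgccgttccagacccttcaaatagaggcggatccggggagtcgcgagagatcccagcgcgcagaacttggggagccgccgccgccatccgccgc
JUN: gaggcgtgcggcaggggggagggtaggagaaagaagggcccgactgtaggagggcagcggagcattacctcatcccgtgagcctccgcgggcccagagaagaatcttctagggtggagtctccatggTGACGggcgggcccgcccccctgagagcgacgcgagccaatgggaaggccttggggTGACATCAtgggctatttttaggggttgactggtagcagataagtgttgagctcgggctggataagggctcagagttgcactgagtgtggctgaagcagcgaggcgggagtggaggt
JUND: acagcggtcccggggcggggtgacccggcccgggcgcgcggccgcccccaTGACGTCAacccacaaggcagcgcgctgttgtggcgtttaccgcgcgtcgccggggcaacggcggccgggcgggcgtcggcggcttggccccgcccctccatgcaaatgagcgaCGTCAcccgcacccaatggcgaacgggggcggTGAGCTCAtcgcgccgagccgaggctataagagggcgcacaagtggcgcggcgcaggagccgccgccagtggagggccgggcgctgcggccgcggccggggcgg

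The promoter table used here held 8 of the 10 genes, all but FOSL1 and IER3. TGACG lay in all 8 promoters, against 24.6% of the 35116 promoters of the same length in the table. In FOS it covered bases -64 to -60 counted from the start, with TATAAA at -33 to -28, and FOSB held the same pair at -60 to -56 and -30 to -25. TATAAA was found in FOS, FOSB and JUNB, against 11.5% of all promoters. CArG boxes were found in EGR1 alone of the 8, as CCATATTAGG at -105 to -96 and CCATATATGG at -83 to -74, against 1.29% of all promoters. TGANNTCA was found in JUN, as TGACATCA at -67 to -60, and in JUND, as TGACGTCA at -200 to -193 and TGAGCTCA at -54 to -47, against 11.5% of all promoters. TGANTCA was found in FOSL2 alone, 5 to 11 bases after the start, against 7.71%, and GCGTGGGCG in none of the 8, against 0.795%. These matches describe letters in a short window and locate no bound site. Bases further upstream were not searched. A motif absent here, such as a CArG box in FOS, may therefore lie outside the window.

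On GRCh38 with GENCODE 29, FOS spans 75278774 to 75282230 of chromosome 14, EGR1 spans 138465490 to 138469315 of chromosome 5 and JUN spans 58780788 to 58784327 of chromosome 1. FOSB, JUNB, JUND and IER2 lie on chromosome 19, FOSL1 on chromosome 11, FOSL2 on chromosome 2 and IER3 on chromosome 6. FOSB overlaps ERCC1, JUNB overlaps HOOK2, IER2 overlaps AC011446.2, IER3 overlaps IER3-AS1 and FOSL2 overlaps FLJ31356, each on the other strand, and FOSL2 also holds AC104695.3 on its own strand. No source used here states whether the counting used strand, so reads within the shared stretches may belong to these 5 genes or to their neighbours. How much this moved the counts of FOSB, JUNB, IER2, IER3 and FOSL2 was not tested. FOS, FOSL1, JUN, JUND and EGR1 overlap no annotated gene.

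Cells were barcodes with at least 500 genes and at most 20% of UMIs (unique molecular identifiers, counts of captured RNA molecules) from mitochondrial genes. They numbered 1861 and 3132 under DMSO, 2467 and 3292 under TSA, and 2891 and 3946 under E6R, the 2 numbers being replicates 1 and 2 here and throughout. Their summed UMIs ranged from 4206366 in DMSO replicate 1 to 26180262 in E6R replicate 2, and both DMSO sums were shallower than every treated one. All 13 adrenergic neuroblastoma markers had UMIs in every library, and their sum was 4501 to 7137 CPM. Between 11 and 58 cell barcodes were shared by each pair of libraries, at most 2.11% of the smaller library. Levels are CPM, the UMIs of a gene relative to the library sum after TMM scaling. Because UMIs count molecules near the polyadenylated end of the transcript, they were not divided by gene length, and capture may differ between genes.

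TSA raised 6 of the 10 genes and lowered none that passed the test: FOS, FOSB, JUNB, EGR1, IER2 and IER3 rose. Over all genes tested, 16.2% were called higher and 13.5% lower under TSA. The median log2 fold change of the 10 genes was 1.5003, and that of all genes tested was -0.01. JUN and JUND had estimates of 0.30 and 0.23 that did not pass, and FOSL1 and FOSL2 had negative estimates that missed the threshold. Both TSA libraries lay above both DMSO libraries for 8 of the genes, a pattern shown by 36.7% of all genes, below both for FOSL2, a pattern shown by 34.6%, and they overlapped DMSO for FOSL1. At an unadjusted p under 0.05 there were 7 of the 10, FOSL2 included, against 42.6% of all genes.

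FOS, the founding FOS protein and a strong activator when paired with JUN, stood at 23.2 and 6.12 CPM in the DMSO libraries, at 234 and 247 CPM under TSA, and at 15.8 and 14.8 CPM under E6R. Both TSA libraries were far above the other 4, and the DMSO libraries were the widest apart. Against DMSO, TSA raised FOS 16.6-fold, a log2 fold change of 4.05 ± 0.51 (SE, 95% interval 2.88 to 5.22, edgeR quasi-likelihood adjusted p = 0.00185). By fitted change this ranked 15 of the 7515 genes with a mean of at least 20 CPM. The size depended on which DMSO library was kept, since it was 5.33 without DMSO replicate 1 and 3.30 without DMSO replicate 2, and the call held in all 15 alternatives, at adjusted p of 0.0221 or less.

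FOSB, a close relative of FOS that also comes as a truncated form lasting in stimulated neurons, was the scarcest FOS gene in control cells. It stood at 3.40 and 1.34 CPM under DMSO, from 16 and 7 UMIs, at 17.9 and 31.8 CPM under TSA and at 1.90 and 3.99 CPM under E6R. The TSA libraries were above all others but differed between themselves. The rise was 10.6-fold, with a log2 fold change of 3.40 ± 0.59 (SE, 95% interval 2.04 to 4.76, edgeR adjusted p = 0.00551). The call was lost without TSA replicate 2, at 2.96 with adjusted p = 0.0522. The estimate was 4.25 without DMSO replicate 1 and 2.78 without DMSO replicate 2.

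FOSL2, which codes for FRA-2, ran the other way. It stood at 29.7 and 24.7 CPM under DMSO, at 9.42 and 7.66 CPM under TSA, and at 54.5 and 13.2 CPM under E6R. Both TSA libraries were the lowest of the 6, and the E6R libraries fell on either side of DMSO. The TSA estimate was -1.67 ± 0.58 (SE, 95% interval -3.01 to -0.32) with edgeR adjusted p = 0.0638, which misses the threshold. With the replicate number as a block it was -1.68 with adjusted p = 0.00884, and the call was also gained with total counts only (-1.98, adjusted p = 0.0352), with DESeq2 (-1.71, adjusted p = 0.0146), with no low-count filter (-1.75, adjusted p = 2.16e-06), without E6R replicate 1 (-1.63, adjusted p = 0.0018) and without E6R replicate 2 (-1.65, adjusted p = 0.00113).

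FOSL1, which codes for FRA-1, the FOS protein most tied to sustained ERK signalling, was set by replicate 1. Its levels were 16.4 and 3.06 CPM under DMSO, 3.72 and 3.74 CPM under TSA, and 10.9 and 3.20 CPM under E6R. The TSA libraries matched each other and lay between the DMSO libraries. The estimate against DMSO was -1.37 ± 0.81 (SE, 95% interval -3.23 to 0.49, edgeR adjusted p = 0.230). Without DMSO replicate 1 it turned to 0.33 (adjusted p = 0.813), and with no low-count filter it was called at -1.46 (adjusted p = 0.0156).

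**Figure D1:**
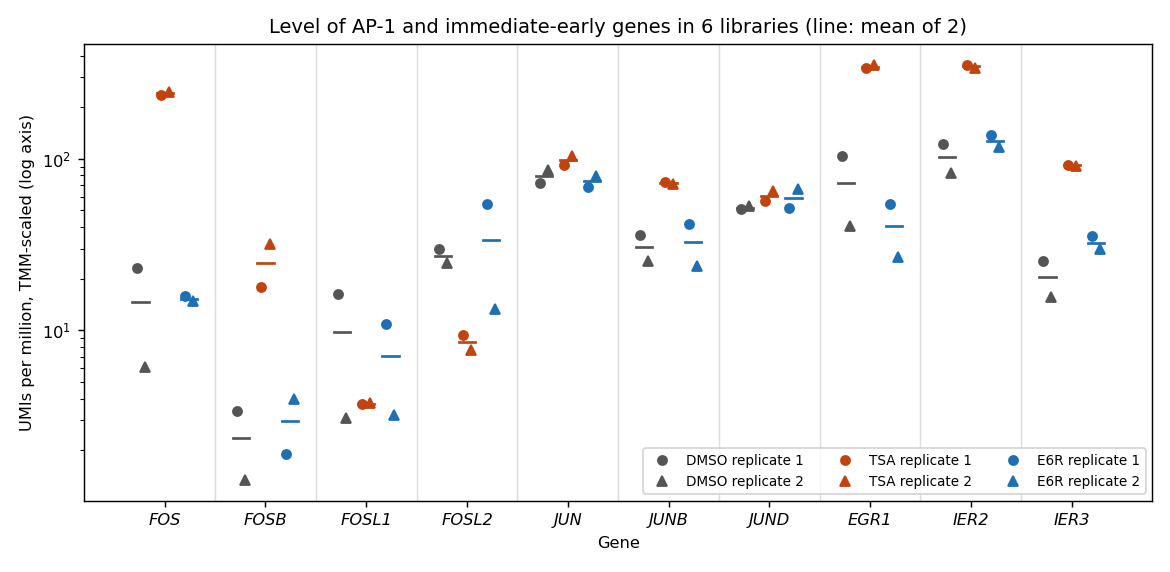
Level in CPM (log axis) of each of the 10 genes in the 6 libraries; circles are replicates 1, triangles are replicates 2, and lines are means of 2. The TSA points of FOS (234 and 247 CPM), EGR1, IER2 and IER3 sit together above all other points, whereas FOSL2 under TSA (9.42 and 7.66 CPM) sits below them and FOSL1 splits by replicate under DMSO and E6R.

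In the JUN family, JUNB alone passed the test. JUN, the main partner of FOS, stood at 72.7 and 86.6 CPM under DMSO, at 91.5 and 105 CPM under TSA and at 68.8 and 79.95 CPM under E6R. Both TSA libraries were above both DMSO libraries, the nearest pair by less than the DMSO replicates differed. The TSA estimate was 0.30 ± 0.20 (SE, 95% interval -0.16 to 0.76, edgeR adjusted p = 0.281). JUND, the constitutive JUN protein, stood at 51.2 and 52.8 CPM, at 56.6 and 65.3 CPM, and at 51.4 and 66.7 CPM in the same order, with a TSA estimate of 0.23 (95% interval -0.26 to 0.72, edgeR adjusted p = 0.437). In this fit with TMM scaling, neither 95% interval reached above 0.76 log2 units, which sets no firm ceiling on a rise. With total counts only, the JUN estimate became -0.01 and the JUND estimate -0.09.

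JUNB, a JUN protein that activates more weakly than JUN and can oppose it, stood at 36.1 and 25.4 CPM under DMSO, at 73.7 and 71.4 CPM under TSA, and at 41.9 and 23.8 CPM under E6R. Both TSA libraries were above the other 4. The rise was 2.36-fold, a log2 fold change of 1.24 ± 0.31 (SE, 95% interval 0.52 to 1.96, edgeR adjusted p = 0.021). It was the least stable of the 6 calls. It was lost with total counts only (0.93, adjusted p = 0.0566), with cells thinned to 1000 UMIs (1.01, adjusted p = 0.0654), without DMSO replicate 2 (0.93, adjusted p = 0.150), and when TSA replicate 1 (1.24, adjusted p = 0.101) or TSA replicate 2 (1.30, adjusted p = 0.0972) was left out.

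EGR1, a zinc finger factor induced by the same signals as FOS, stood at 104 and 40.5 CPM under DMSO, at 339 and 352 CPM under TSA, and at 54.7 and 26.8 CPM under E6R. The TSA libraries were close to each other and above all others. The rise was 4.79-fold, a log2 fold change of 2.26 ± 0.47 (SE, 95% interval 1.17 to 3.35, edgeR adjusted p = 0.0109). The call was lost without DMSO replicate 2 (1.65, adjusted p = 0.0516), and when TSA replicate 1 (2.31, adjusted p = 0.0523) or TSA replicate 2 (2.27, adjusted p = 0.0611) was left out, and the estimate was 3.13 without DMSO replicate 1.

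IER2, a small nuclear protein with a role in transcription, had the most UMIs of the 10 genes in 4 of the 6 libraries, with JUN ahead in DMSO replicate 2 and EGR1 ahead in TSA replicate 2. It stood at 122 and 82.4 CPM under DMSO, at 354 and 339 CPM under TSA, and at 138 and 117 CPM under E6R. TSA raised it 3.39-fold, with a log2 fold change of 1.76 ± 0.24 (SE, 95% interval 1.21 to 2.31, edgeR adjusted p = 0.0024). IER3, a stress-inducible protein that modulates survival and ERK signalling, stood at 25.3 and 15.7 CPM under DMSO, at 92.7 and 91.1 CPM under TSA, and at 35.3 and 29.6 CPM under E6R. TSA raised it 4.49-fold, with a log2 fold change of 2.17 ± 0.27 (SE, 95% interval 1.55 to 2.79, edgeR adjusted p = 0.00178). For both genes the TSA libraries agreed closely and stood above all others, and both calls held in all 15 alternatives, at adjusted p of 0.0248 or less for IER2 and 0.0228 or less for IER3.

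The depth and makeup of the libraries moved with treatment. The TSA sums held 14282282 and 13318200 UMIs against 4206366 and 4793493 under DMSO, and mitochondrial genes gave 6.08 and 9.71% of UMIs under TSA, 5.83 and 6.20% under DMSO, and 1.55 and 1.51% under E6R. The 6 immune cell markers summed to between 18.8 and 19.1 CPM under TSA and between 9.99 and 10.5 CPM under DMSO. CSF1R stood at 0.425 and 0.574 CPM under DMSO and at 6.91 and 5.05 CPM under TSA. CD68 stood at 9.14 and 9.18 CPM and at 10.4 and 13.8 CPM in the same order, and PTPRC at 0 and 0.383 CPM and at 0.304 and 0 CPM. CD79A and LYZ stayed at or below 0.836 CPM, and CD3E had UMIs in DMSO replicate 2 alone. The part of depth, mitochondrial share and immune markers in the TSA results was not tested. With mitochondrial genes left out, the same number of the 10 genes was called, and total counts only, which moved the median of all genes from -0.01 to -0.32, turned the split of all calls from 2720 higher and 2255 lower to 1717 higher and 3361 lower.

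None of the 10 genes passed the test for E6R against DMSO. None of the 16763 genes tested passed it (0%), while 2913 of them (17.4%) had an unadjusted p under 0.05, against 1 of the 10, IER3. DESeq2 on the same genes called 338 genes, none of them among the 10. The median log2 fold change of the 10 genes under E6R was 0.14, beside 0.03 for all genes. Both E6R libraries lay above both DMSO libraries for IER3 alone, a pattern shown by 24.6% of all genes, and the other 9 genes overlapped. None of the 10 had both E6R libraries below both DMSO libraries, against 22.7% of all genes.

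The E6R estimates differed in how tightly they were bounded. For JUN the estimate was -0.10 (95% interval -0.55 to 0.36), for JUND 0.19 (95% interval -0.30 to 0.67) and for JUNB 0.09 (95% interval -0.62 to 0.80). For FOS it was 0.07 (95% interval -1.02 to 1.16), and the whole interval lay below that of the TSA change, which began at 2.88. EGR1 had the most negative estimate, -0.83 (95% interval -1.88 to 0.23, edgeR adjusted p = 0.385), and turned to 0.14 without DMSO replicate 1. IER2 stood at 0.32 (95% interval -0.22 to 0.86). IER3 stood at 0.67 (95% interval 0.06 to 1.27, edgeR adjusted p = 0.254) and kept its sign in every alternative. FOSB, FOSL1 and FOSL2 had the widest intervals, from -1.01 to 1.70, from -2.26 to 1.34 and from -0.97 to 1.60. All 10 edgeR adjusted p-values lay between 0.254 and 0.952, and a p that misses the threshold does not show that E6R and DMSO were alike.

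**Figure D2:**
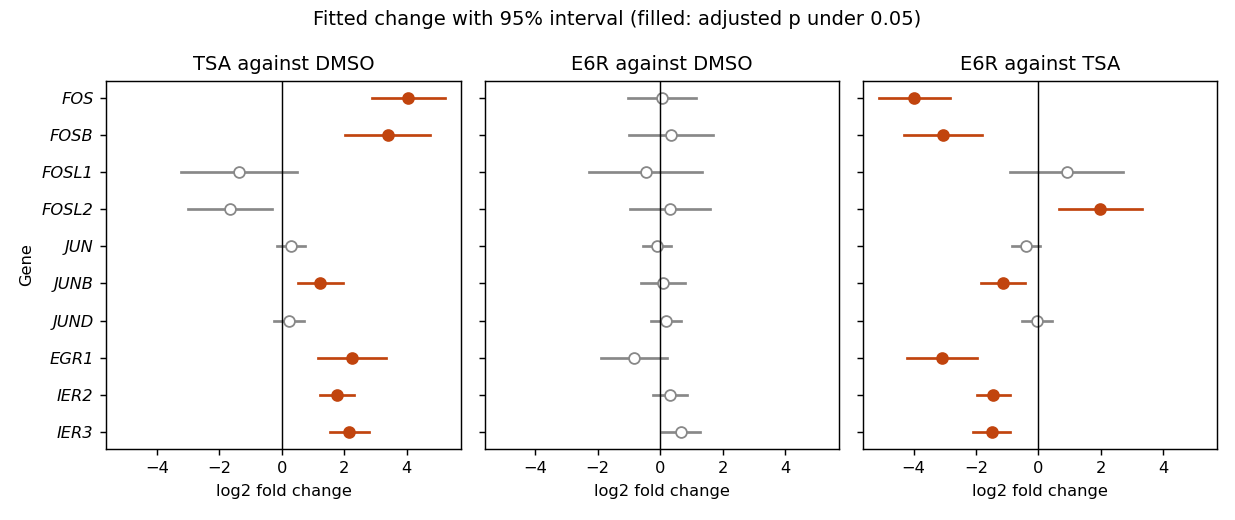
Fitted log2 fold change of each gene with its 95% interval in the 3 comparisons; filled points have an adjusted p under 0.05. Under TSA 6 points to the right of 0 are filled, with FOS at 4.05, under E6R every interval of the genes other than IER3 crosses 0 and no point is filled, and E6R against TSA is filled for 7 genes.

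Set directly against TSA, E6R cells had less FOS, FOSB, JUNB, EGR1, IER2 and IER3 and more FOSL2. That made 7 of 10 called, where 38.2% of all genes were called, 19.5% lower and 18.7% higher, and the same 7 had an unadjusted p under 0.05, against 48.5% of all genes. Both E6R libraries lay below both TSA libraries for 7 genes (38.9% of all genes) and above them for FOSL2 (33.7% of all genes), with 2 genes overlapping. In this comparison the median was -1.29 for the 10 genes and -0.09 for all genes. The log2 difference was -3.98 ± 0.49 (SE) for FOS (edgeR adjusted p = 0.00104), -3.09 ± 0.48 for EGR1 (edgeR adjusted p = 0.00246) and -3.06 ± 0.54 for FOSB (edgeR adjusted p = 0.00383). It was -1.502 for IER3, -1.44 for IER2 and -1.15 for JUNB, all with edgeR adjusted p of 0.02 or less. FOSL2 was higher under E6R by 1.98 ± 0.58 (SE, edgeR adjusted p = 0.0285). The FOSL2 call was lost without E6R replicate 1 (0.70, adjusted p = 0.115), without TSA replicate 1 (2.15, adjusted p = 0.116) and without TSA replicate 2 (1.85, adjusted p = 0.168), and the estimate was 2.69 without E6R replicate 2. The JUNB call was lost without TSA replicate 1 (-1.11, adjusted p = 0.101), without TSA replicate 2 (-1.16, adjusted p = 0.0991) and without E6R replicate 2 (-0.77, adjusted p = 0.056). JUN, JUND and FOSL1 had differences of -0.40, -0.04 and 0.91, which did not pass the test. This comparison shares its libraries with the TSA and E6R comparisons against DMSO and is no separate evidence for them.

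The makeup of the FOS family turned over under TSA. Of all FOS family UMIs in a library, FOS itself gave 31.9 and 17.4% under DMSO, 88.3 and 85.1% under TSA, and 19.0 and 42.0% under E6R. FOSL2 gave 40.9 and 70.1% under DMSO, 3.55 and 2.64% under TSA, and 65.6 and 37.6% under E6R. FOSL2 was thus the leading FOS family transcript in both DMSO libraries and in E6R replicate 1, and FOS in both TSA libraries and in E6R replicate 2. FOSB stayed between 2.28 and 11.3% in all 6 libraries. In TSA replicate 1 the exact 95% binomial interval of the FOS share was 87.2 to 89.3%, from 3493 family UMIs, and in DMSO replicate 2 it was 12.2 to 23.7%, from 184. Such intervals cover counting error only. These shares do not depend on the scaling between libraries, and 2 libraries against 2 cannot go below p = 0.333 in an exact two-sided permutation test.

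The JUN family kept a steadier makeup. JUN gave 45.4 and 52.6% of the family's UMIs under DMSO, 41.3 and 43.3% under TSA, and 42.4 and 46.9% under E6R. JUNB gave 22.6 and 15.4% under DMSO, 33.2 and 29.6% under TSA, and 25.8 and 14.0% under E6R, and JUND gave between 25.5 and 39.1% in all libraries. Summed over the 4 genes, the FOS family stood at 72.7 and 35.2 CPM under DMSO, 265 and 290 CPM under TSA, and 83.1 and 35.2 CPM under E6R. The JUN family stood at 160 and 165 CPM, 222 and 241 CPM, and 162 and 171 CPM. FOS family UMIs per JUN family UMI were 0.454 and 0.213 under DMSO, 1.20 and 1.20 under TSA, and 0.512 and 0.207 under E6R. Replicate 1 was above replicate 2 in this ratio under both DMSO and E6R, and the 2 TSA libraries were alike.

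**Figure D3:**
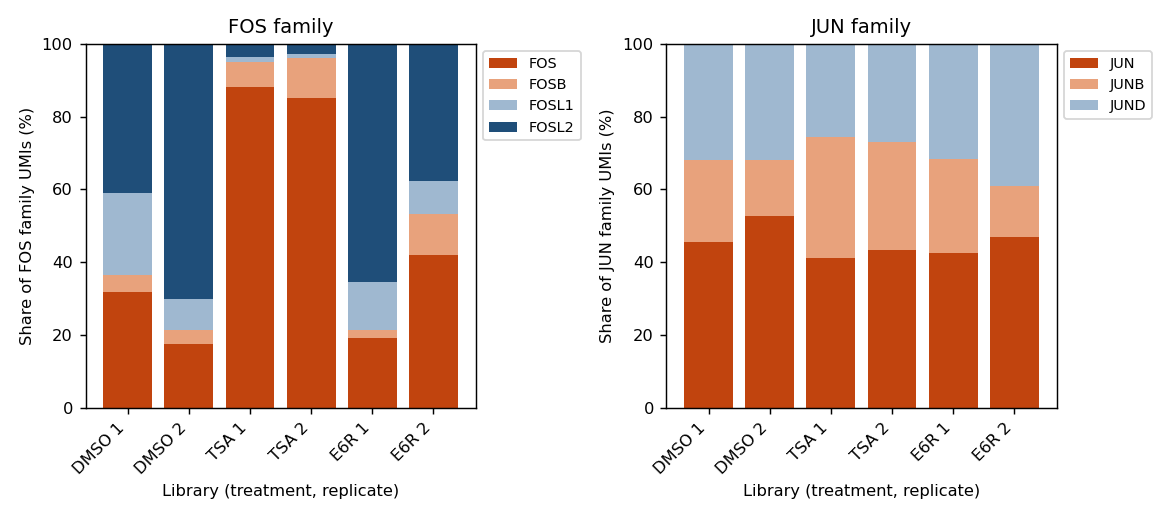
Share (%) of each gene in the UMIs of the FOS family (left) and of the JUN family (right), with a bar per library. FOS fills 88.3 and 85.1% of the TSA bars on the left, where FOSL2 fills 3.55 and 2.64%, and the JUN share stays between 41.3 and 52.6% in all bars on the right.

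More cells held the genes that rose. To compare libraries of unlike depth, each cell was thinned at random to 1000 UMIs, and shallower cells were left out (674 and 1450 under DMSO, 615 and 503 under TSA, 692 and 1718 under E6R). A FOS UMI was then found in 2.86 and 1.01% of cells under DMSO, 16.1 and 17.8% under TSA, and 1.64 and 1.66% under E6R. The exact 95% binomial intervals were 14.5 to 17.9% and 16.4 to 19.3% for the TSA libraries and reached at most 3.98% in the other 4. At full depth the shares were 4.997 and 1.02%, 36.8 and 36.7%, and 6.81 and 5.85%. EGR1 was found in 9.35 and 4.70% of thinned cells under DMSO, 22.5 and 22.1% under TSA, and 4.27 and 2.69% under E6R. At full depth the EGR1 shares were 15.6 and 5.68%, 42.1 and 41.7%, and 15.7 and 8.19%.

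IER2 was found in 10.95 and 8.32% of thinned cells under DMSO, 25.4 and 23.8% under TSA, and 13.1 and 10.7% under E6R, and at full depth in 20.6 and 11.6%, 48.3 and 45.2%, and 34.0 and 24.2%. JUN was found in 7.67 and 8.09%, 8.05 and 7.60%, and 6.41 and 7.99% of thinned cells, with no order by treatment, and at full depth in 13.9 and 11.97%, 23.5 and 19.7%, and 20.9 and 21.0%. FOSB was found in 0.674 and 0.178%, 1.13 and 2.33%, and 0.318 and 0.494% of thinned cells. JUNB was found in 3.54 and 2.85%, 5.35 and 5.16%, and 3.77 and 1.75%. IER3 was found in 3.54 and 1.37%, 7.24 and 6.81%, and 3.41 and 2.96%. The exact 95% binomial intervals of replicate 1 under TSA and DMSO overlapped for FOSB (0.703 to 1.73% and 0.291 to 1.32%). Those for JUNB overlapped too (4.37 to 6.47% and 2.56 to 4.75%). In replicate 2 they lay apart for FOSB (1.80 to 2.96% and 0.037 to 0.520%) and for JUNB (4.37 to 6.05% and 2.11 to 3.77%). Such intervals cover counting error within a library and are no test between treatments. FOSL1 reached at most 1.77% of thinned cells. FOSL2 was found in 3.96 and 2.56%, 0.972 and 0.574%, and 4.64 and 1.26% of thinned cells.

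Barcodes below the cell filter held these genes as well. The labels name a single cell line, so no cell type lacking these genes was at hand, and barcodes with fewer than 500 genes were read instead. They include barcodes with at least 300 genes, which an alternative takes as cells, so they cannot stand in for such a cell type. There a FOS UMI was found in 3.79 and 4.09% of barcodes under TSA, at median depths of 167 and 191 UMIs, and in 0.227 to 0.761% in the other 4 libraries, at 121 to 298 UMIs. In CPM without TMM scaling, FOS stood at 169 and 160.5 in these small TSA barcodes and at 216 and 213 in the TSA cells, and EGR1 at 230.5 and 244 against 312 and 303. How much of a cell's count came from free RNA was not tested.

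**Figure D4:**
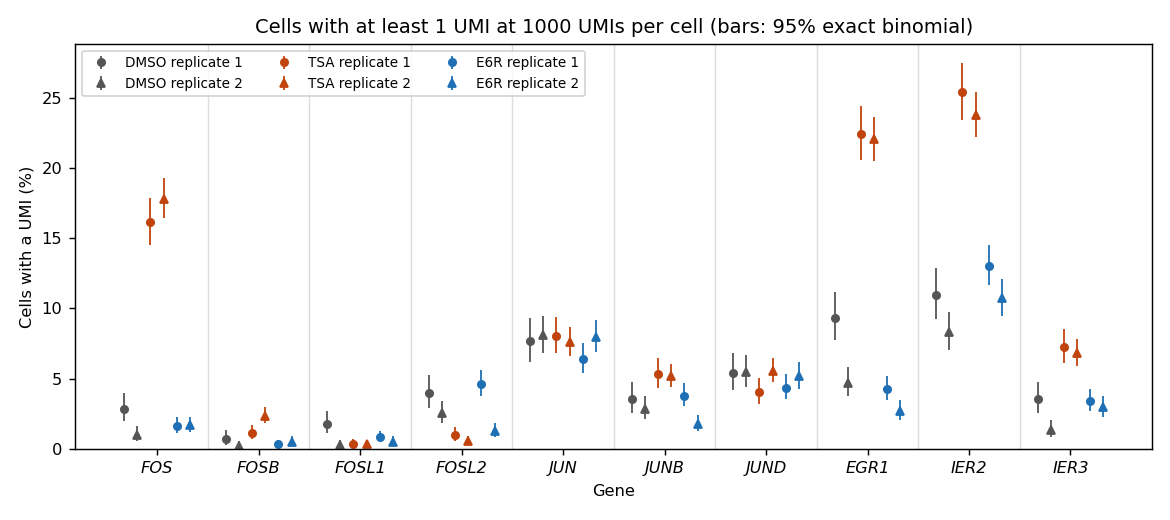
Share (%) of cells, thinned to 1000 UMIs each, with at least 1 UMI of each gene, by library; bars are exact 95% binomial intervals. TSA cells lead for FOS (16.1 and 17.8%), EGR1, IER2, IER3 and JUNB, and the JUN points of all libraries lie between 6.41 and 8.09%.

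Counted together in thinned cells, a mean of 0.497 and 0.348 of the 10 genes was found per DMSO cell, 0.911 and 0.920 per TSA cell, and 0.427 and 0.352 per E6R cell. None of the 10 was found in 61.1 and 70.3% of cells under DMSO, 39.8 and 40.3% under TSA, and 65.6 and 70.4% under E6R. Cells with 3 or more made up 1.35 and 0.297%, 6.37 and 6.74%, and 0.864 and 0.628%. Within the TSA libraries, EGR1 was found in 28.8 and 27.8% of the FOS-positive cells and in 21.2 and 20.8% of the FOS-negative cells. The same order held under DMSO (17.6 and 17.6% against 9.11 and 4.56%) and under E6R (8.33 and 8.11% against 4.21 and 2.60%). FOS-positive cells were few there, 34 and 17 under DMSO and 36 and 37 under E6R. JUN was found in 7.36 and 8.85% of the FOS-positive TSA cells and in 8.18 and 7.33% of the FOS-negative ones. It was found in 9.86 and 8.46% of the EGR1-positive TSA cells and in 7.52 and 7.36% of the EGR1-negative ones. IER2 was found in 27.1 and 32.6% of the FOS-positive TSA cells and in 25.1 and 21.9% of the FOS-negative ones. These are shares in sparse counts of cells that share a library, given as a description.

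**Figure D5:**
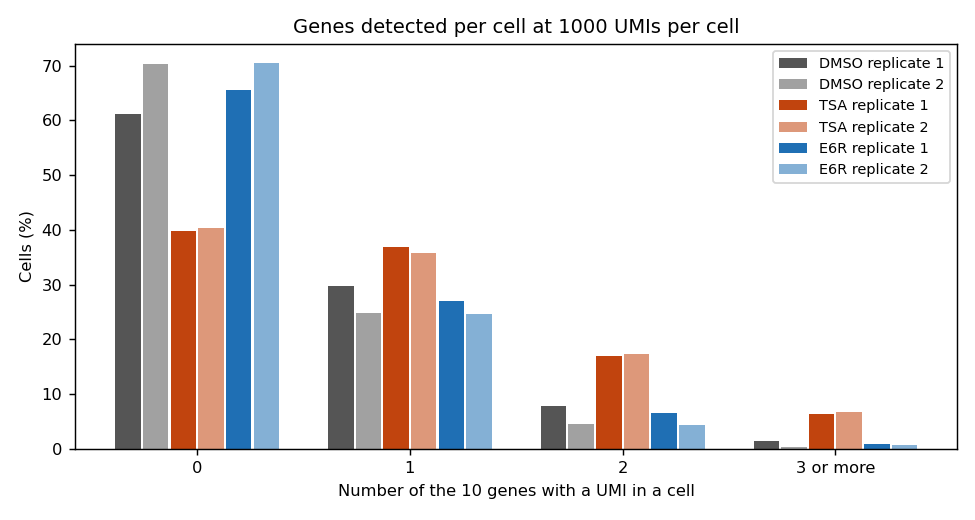
Share (%) of cells, thinned to 1000 UMIs, in which 0, 1, 2 or at least 3 of the 10 genes had a UMI, with a bar per library. The bars at 0 are lowest for TSA (39.8 and 40.3%), and the TSA bars at 3 or more (6.37 and 6.74%) are the highest.

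The replicates did not behave alike in all groups. The level in replicate 1 was over that in replicate 2 for 8 of the 10 genes under DMSO and for 7 under E6R, and all 7 of the latter were among the former, while under TSA it was over for 4. Replicates lay more than 1.5-fold apart for 5 genes under DMSO, 5 under E6R and 1, FOSB, under TSA. The same counts were not made over all genes. Over 7515 genes, replicate differences correlated at 0.564 between DMSO and E6R, so a shared direction was not particular to these 10 genes. The ratio of replicate 1 to replicate 2 was 5.35 under DMSO, 0.994 under TSA and 3.42 under E6R for FOSL1. It was 2.56, 0.963 and 2.04 for EGR1, and 3.78, 0.948 and 1.07 for FOS. FOSL2 was apart under E6R only, at 4.11, against 1.21 and 1.23. JUN and JUND were lower in replicate 1 in all groups, at 0.771 to 0.970.

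The summed markers of fibroblasts and endothelial cells were higher in replicate 1 of every group. The 6 fibroblast markers summed to between 29.5 and 141 CPM under DMSO, 92.6 and 163 CPM under TSA, and 31.0 and 320 CPM under E6R, with ratios of replicate 1 to replicate 2 of 4.80, 1.76 and 10.3. The 4 endothelial markers had ratios of 10.8, 2.46 and 35.0, and their sum reached 49.7, 11.5 and 65.8 CPM. DCN, a matrix proteoglycan, stood at 56.9 and 1.91 CPM under DMSO, 63.0 and 28.99 CPM under TSA, and 165 and 1.92 CPM under E6R. Not every marker followed: COL1A2 was lower in replicate 1 under DMSO (0.850 and 5.36 CPM), and PDGFRB under DMSO (5.74 and 6.12 CPM) and TSA (3.49 and 4.09 CPM). Of the endothelial markers, KDR was lower in replicate 1 under DMSO (0.212 and 0.574 CPM) and TSA (0.076 and 0.174 CPM). All 6 fibroblast markers had UMIs in every library, and of the endothelial markers KDR was at 0 in E6R replicate 2. Epithelial and erythroid sums stayed at or below 3.22 CPM. The part of these cells or programs in the replicate differences of FOSL1, EGR1 and FOS was not tested.

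Other immediate-early genes were called higher under TSA more often than lower. Of 36 other immediate-early genes, 35 were tested and 14 rose, 1 fell and 20 did not pass, with a median log2 fold change of 1.09. Over all genes 16.2% rose and 13.5% fell, with a median of -0.01. GADD45B, a stress-inducible growth arrest gene, stood at 18.5 and 10.1 CPM under DMSO, 158 and 114 CPM under TSA, and 19.5 and 14.5 CPM under E6R, a TSA log2 fold change of 3.26. NR4A1, an orphan nuclear receptor, rose by 2.28, IER5 by 2.14, RHOB by 1.91 and ARC, a synaptic activity gene, by 1.86. ARC stood at 14.0 and 12.2 CPM under DMSO, 48.2 and 47.4 CPM under TSA, and 9.67 and 15.4 CPM under E6R. SGK1 and PPP1R15A rose by 1.37 and 1.13. ZFP36L2, an mRNA decay factor, fell by 1.23. The calls of GADD45B, NR4A1, IER5, RHOB and ARC held in all 15 alternatives, while those of SGK1, PPP1R15A and ZFP36L2 were lost in some. With thinned cells, 8 of the 28 tested rose, where 1704 of all genes did, against 2720 in the main fit. When a DMSO or TSA library was left out, fewer rose, among these genes and over all genes. The median stayed at or above 0.78 in all alternatives. Against TSA, 13 of the 35 were lower and 1 was higher under E6R, where 19.5% of all genes were lower and 18.7% higher.

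Among genes that ERK signalling induces, many of them brakes on the pathway, the calls under TSA were falls. Of 19 MAPK feedback genes, none rose and 6 fell under TSA, with a median of -0.81, where 16.2% of all genes rose and 13.5% fell. Against TSA, 8 were higher and none lower under E6R, where 18.7 and 19.5% of all genes were. SPRY2, an inhibitor of receptor tyrosine kinase signalling, stood at 42.5 and 23.0 CPM under DMSO, 8.89 and 10.4 CPM under TSA, and 59.3 and 22.8 CPM under E6R, and fell by 1.76 on the log2 scale under TSA. SPRED1 fell by 1.24, DUSP4, an ERK phosphatase, by 1.16 and ETV4, an ETS factor induced by ERK, by 1.16. Each of these 4 calls was lost in some of the fits that left out a library. With total counts only, 9 fell, where 3361 of all genes fell, against 2255 in the main fit. When a DMSO or TSA library was left out, fewer feedback genes and fewer of all genes were called lower. The feedback median was then -0.43 and -0.73 without DMSO replicates 1 and 2, and -0.58 and -0.84 without TSA replicates 1 and 2. Feedback genes were called higher in other fits, 1 with DESeq2 (2774 of all genes) and 1 with thinned cells (1704 of all genes). It was 2 with no low-count filter (2796 of all genes) and 2 with the replicate block (3323 of all genes). Some were also called higher when either E6R library was left out. The median lay between -1.12 and -0.43 in all alternatives.

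Among 22 kinases and factors upstream of immediate-early genes, 3 rose and 4 fell under TSA, close to the shares over all genes (16.2% higher, 13.5% lower). ELK3, a ternary complex factor that can repress, fell by 1.89 and MAP3K1 by 1.33, while RPS6KA1, an ERK-activated kinase, rose by 1.56 and MAP2K1 by 1.18. With total counts only, 1 rose and 7 fell, where 1717 of all genes rose and 3361 fell. When either TSA library was left out, fewer were called in each direction, among these genes and over all genes. Of 13 tested bZIP partners of AP-1, 1 rose and 4 fell, against the same shares over all genes. ATF5 stood at 65.6 and 66.9 CPM under DMSO, 11.6 and 9.58 CPM under TSA, and 46.8 and 73.1 CPM under E6R, and fell by 2.64. MAFG fell by 1.07 and CREB1, which can drive FOS through its CRE, by 0.75. Of 6 turnover and corepressor genes of JUN and EGR1, FBXW7, a ubiquitin ligase subunit that acts on JUN, rose by 0.79 and COP1, another, fell by 0.78. Of the genes named from these 3 lists, only ATF5 kept its call in all 15 alternatives.

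Of 17 genes listed as AP-1 targets, 13 were tested, and 1 rose and 3 fell under TSA, with a median of -0.51, where 16.2% of all genes rose and 13.5% fell. CCND1, which codes for cyclin D1, stood at 925 and 1082 CPM under DMSO, 137 and 125 CPM under TSA, and 1418 and 1422 CPM under E6R. It fell by 2.93 on the log2 scale, and this call held in all 15 alternatives. VIM, the intermediate filament vimentin, rose by 1.46, and ITGAV, an integrin chain, fell by 0.79, and both of these calls were lost in some alternatives. No gene of the 6 lists passed the edgeR test under E6R, and none of all 16763 genes tested did. In the alternatives 1 immediate-early gene passed with DESeq2 and 1 with the replicate block. With no low-count filter, 2 of 36 immediate-early, 2 of 19 feedback and 4 of 16 target genes passed. All of these were higher, and the counts over all genes in these fits are given in the last section. In the main fit, 17.4% of all genes had an unadjusted p under 0.05 under E6R. So did 3 of 35 immediate-early, 3 of 19 feedback, 3 of 13 target and 1 of 22 upstream genes. The remaining lists, of 13 and 6 tested genes, had none.

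Likeness of pattern was measured by Pearson's r of log2 CPM over the 6 libraries, among 7478 genes with a mean of at least 20 CPM. The genes most like FOS were TPI1, a glycolytic enzyme (r = 0.999), HSPA14, a chaperone (r = 0.997), and CLK2, a kinase of splicing factors (r = 0.995). TPI1 moved over a much smaller range than FOS, from 1132 and 969 CPM under DMSO to 1520 and 1549 CPM under TSA and 1082 and 1064 CPM under E6R. Most like EGR1 were RNF216, TNFAIP8L1 and MAF1 (r = 0.997, 0.995 and 0.994), and most like JUN were KANTR, TOP2A and DCAKD (r = 0.992, 0.989 and 0.987). The 6 points share 3 treatments and 2 replicate numbers, so these values describe likeness over few libraries.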

How the data were processed

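The authors deposited whole-number UMI counts per gene and barcode for 6 libraries, not normalized. Per the submitters' processing notes, STARsolo 2.7.9a and GRCh38 were used. No source used here states the annotation, the strand setting or how barcodes were chosen. The 10 genes and all lists were chosen with earlier results of these data known. Of the gene identifiers, 34616 of 36601 were present in GENCODE 29. No doublet caller was run.

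Barcodes with at least 500 genes and at most 20% mitochondrial UMIs were kept (17589 cells). Counts were summed per library, since cells are not replicates, and the 6 sums were fitted together with edgeR 4.0.16 in R 4.3.3 (quasi-likelihood test, TMM, filterByExpr, group as the only term, Benjamini-Hochberg adjustment over all genes at 0.05). Adjusted p-values in the text are from this fit unless an alternative is named. The script was tested on simulated counts. The alternatives were total counts only, RLE normalization, DESeq2 1.42.0, no low-count filter, the replicate number as a block, cells with at least 300 genes, cells without the 5% with most UMIs, cells thinned to 1000 UMIs, sums without the 13 mitochondrial genes, and leaving out each library.

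Groups share replicate numbers in the labels. Differences between replicates correlated across 7515 genes at 0.242 (DMSO and TSA), 0.564 (DMSO and E6R) and 0.166 (TSA and E6R). The labels do not say whether the numbers pair the libraries. The main fit did not use them, and the fit with the replicate number as a block is given as an alternative. Named genes were all 10 members, the genes with the largest changes among those called under TSA with a mean of at least 20 CPM in each list (at most 4, and at most 8 for the other immediate-early genes), and the 3 genes most like FOS, JUN and EGR1. Intervals on shares are exact binomial (Clopper-Pearson) and cover counting error only.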

Additional observations from a re-analysis of the deposited data

How the results depend on the processing

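The TSA rises of FOS, IER2 and IER3 and the E6R-against-TSA differences of FOS, FOSB, EGR1, IER2 and IER3 kept their direction and their call in all 15 alternatives. The number of the 10 genes called for TSA was 3 to 7 when a library was left out, with the 3 reached without TSA replicate 2. The numbers of all genes called lay between 1416 and 6028 for TSA, 0 and 3 for E6R, and 2628 and 6385 for E6R against TSA in those fits. For E6R, DESeq2 called 338 genes, no low-count filter 1095, the replicate block 19 and sums without mitochondrial genes 1, and none of the 10 genes in any of them. For E6R against TSA, thinned cells gave 4181 calls. Among the 10 genes the replicate block changed no call other than that of FOSL2 for TSA. Estimates near 0 changed sign. With total counts only, JUN and JUND for TSA were -0.0134 and -0.0852, FOS and JUNB for E6R were -0.0691 and -0.0463, and JUND for E6R against TSA was 0.14. With thinned cells, FOS, FOSL2, JUNB and JUND for E6R were -0.13, -0.0464, -0.22 and -0.21. JUN for E6R was 0.0667 with no low-count filter, and JUND for E6R was -0.0079 without the 5% of cells with most UMIs. JUND for E6R against TSA was 0.0005 with RLE normalization, 0.0011 with DESeq2, 0.21 with no low-count filter and 0.0477 without mitochondrial genes. With a library left out, the E6R estimates ranged from -0.56 to 1.45 for FOS, -0.26 to 1.28 for FOSB, -1.49 to 1.34 for FOSL1, -0.93 to 1.04 for FOSL2, -0.17 to 0.11 for JUN, -0.26 to 0.50 for JUNB and -1.32 to 0.14 for EGR1. FOSL1 ranged from -2.21 to 0.33 for TSA and from -0.15 to 1.57 for E6R against TSA, and JUND from -0.22 to 0.20 for E6R against TSA. The cause of these changes was not tested, but fits without a library hold fewer samples, and the lone library left in a group was assumed to vary like the others. The 2 DMSO libraries were the shallowest, so scarce genes such as FOSB (16 and 7 UMIs) were counted least precisely there.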
